A study of Drosophila melanogaster with 72 samples.

Results

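The genes edin (elevated during infection, FBgn0052185) and IBIN (induced by infection, FBgn0265577) of Drosophila melanogaster were followed library by library in whole adult males. They are 2 of the 17324 features in the count table and 2 of the 12470 genes that passed the filter on low counts. Both were chosen by their measured levels in these libraries, because those levels differed between males with mitochondria of different origin. Contrasts between mitochondrial haplogroups and between their populations of origin are therefore given as descriptions, with no test.

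The males carried 1 of 6 mitochondrial haplogroups and 1 of 6 Y haplotypes of the Global Diversity Lines, inbred fly lines from several populations, with 1 replacement line for each haplotype. Of the haplogroups, 2 originated in Beijing (B38 and B39), 1 in Ithaca (I02) and 3 in the Netherlands (N01, N02 and N23). Y haplotypes B04 and B11 came from Beijing, ZH23 and ZW139 from Zimbabwe, and N03 and N07 from the Netherlands. Mothers of mitochondrial replacement lines were crossed with fathers of Y replacement lines, and both kinds of line are described as sharing 1 nuclear background. A son takes his X chromosome from his mother, so effects of an X chromosome that differs between the mitochondrial lines and effects of the mitochondria cannot be told apart. Each of the 36 combinations had 2 libraries, each a pool of 10 males aged 3 to 5 days from a cross of its own. No infection or other treatment is named for any group. The labels give 2 batches: batch 2 held 18 libraries, all of them replicate 2 of a Netherlands haplogroup, and batch 1 held the other 54.

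Both genes encode short peptides that flies make in response to infection. In edin the response to bacteria runs through the Imd pathway, in which peptidoglycan receptors activate the NF-kappaB factor Relish, and the gene is also needed for the blood cell response to parasitoid wasps. IBIN is switched on by both the Imd and the Toll pathway, and its overexpression has been linked to raised sugar in the fly's blood. Typical outputs of the same pathways are the antimicrobial peptides, among them the diptericins, attacins, cecropins, drosocin and metchnikowin.

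In the Ensembl 115 annotation of BDGP6.54, edin lies on chromosome 3L at 17494880 to 17495300, plus strand. It is a protein-coding gene of 421 bases with 1 exon, 115 codons before the stop, and a 3' untranslated region of 64 bases. The gene sits inside Oatp74D, an organic anion transporter gene on the same strand, and 6144 bases separate it from the nearest Oatp74D exon. IBIN lies on chromosome 2R at 17671068 to 17671295, plus strand, with 228 bases, 1 exon, 41 codons and a 3' untranslated region of 70 bases. The gene P32 lies on the other strand, with 13 bases between the 3' ends of the pair. Over the differences between replicate libraries, Pearson's r was 0.02 for edin and Oatp74D and 0.05 for IBIN and P32. Oatp74D stayed between 3.31 and 18.9 CPM (gene counts scaled to a library of 1000000 counts) and P32 between 4.60 and 38.7 CPM in the 72 libraries.

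Libraries held between 2454024 and 7671784 counts in genes (median 4792638). The share of reads aligned to several places had a median of 12.3% and exceeded 20% in 6 libraries, 4 of them of B38. Marker genes of male accessory gland and testis summed to between 6353 and 11383 CPM over the 10 tested, and none of them was at 0 in any library. In whole flies, fewer cells of a type and less RNA per cell cannot be told apart.

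edin was high in many libraries of males with Beijing or Ithaca mitochondria and low in nearly all libraries of males with Netherlands mitochondria. In B38 libraries it ranged from 2.76 to 312.8 CPM with a median of 34.0 CPM. In B39 libraries the lowest, median and highest values were 3.81, 10.3 and 196 CPM, and in I02 libraries they were 1.89, 15.9 and 201 CPM. Among the Netherlands haplogroups, N01 ranged from 0.472 to 25.7 CPM with a median of 4.45 CPM, N02 from 0.546 to 37.7 CPM with a median of 2.93 CPM, and N23 from 1.22 to 9.94 CPM with a median of 2.94 CPM. The ranges of all haplogroups overlapped, although the lowest library of each Beijing or Ithaca haplogroup lay above the lowest of each Netherlands haplogroup. More than 10 CPM of edin was found in 16 of 24 Beijing libraries, 8 of 12 Ithaca libraries and 3 of 36 Netherlands libraries.

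IBIN followed the same order of populations, with fewer counts. In B38 it ranged from 1.43 to 70.1 CPM with a median of 9.60 CPM. In B39 and I02 the medians were 2.72 and 3.04 CPM, and the highest libraries reached 57.0 and 51.2 CPM. The medians of N01, N02 and N23 were 1.20, 0.327 and 2.36 CPM, and their highest libraries had 9.38, 10.8 and 6.51 CPM. The gene had no read in 4 libraries, namely 1 each of B39, N01, N02 and N23. A count of 0 allows up to 3 counts, which is 0.533 to 0.88 CPM in these libraries. B38 was the haplogroup in which IBIN was above the median of all libraries, 2.12 CPM, most often, in 11 of 12 libraries. It was so in 7 of 12 libraries of B39 and of I02, and in 3 of 12 in N01, 2 of 12 in N02 and 6 of 12 in N23.

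**Figure D1:**
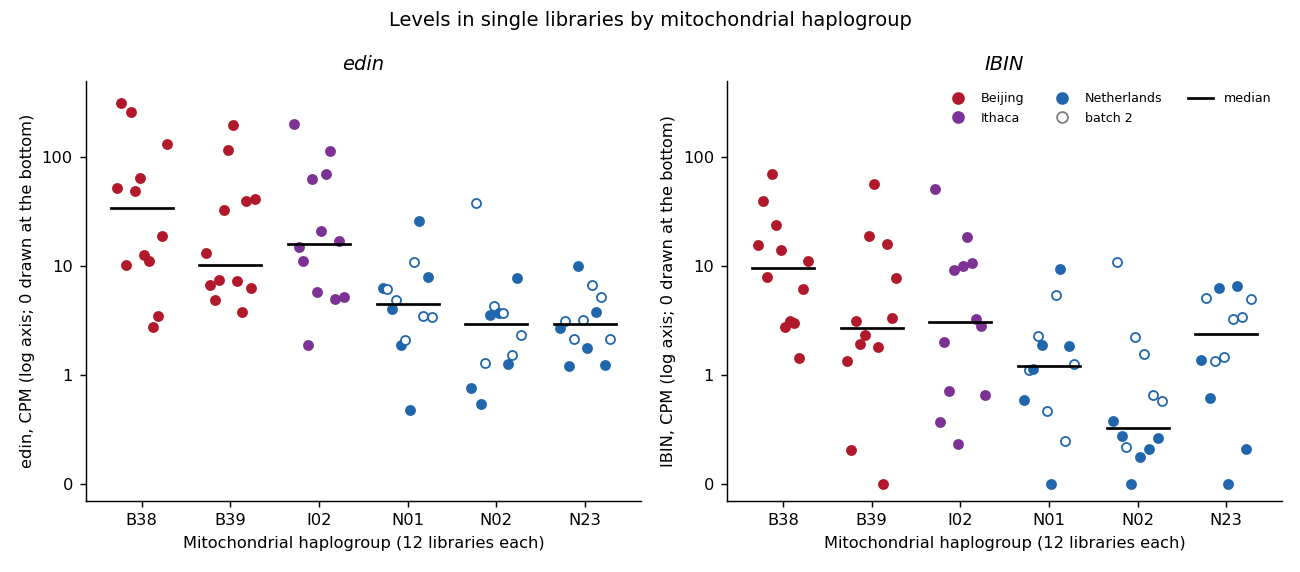
Level of edin (left) and IBIN (right) in each of 72 libraries, in CPM on a log axis with 0 drawn at the bottom, by mitochondrial haplogroup; points are libraries, open points are batch 2, colours give the population and black lines are medians of 12 libraries. The edin medians are 34.0, 10.3 and 15.9 CPM in B38, B39 and I02, and 4.45, 2.93 and 2.94 CPM in N01, N02 and N23, with overlapping ranges.

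On the log2 CPM scale, edin averaged 4.55 ± 2.02 in Beijing libraries (SD, n = 24), 4.28 ± 1.99 in Ithaca libraries (SD, n = 12) and 1.93 ± 1.18 in Netherlands libraries (SD, n = 36). IBIN averaged 2.63 ± 1.92 in Beijing, 2.02 ± 2.01 in Ithaca and 0.71 ± 1.36 in Netherlands libraries, with the same n. In the fit over all genes, the Beijing minus Netherlands log2 fold change between mitochondria was 3.13 ± 0.53 (SE) for edin and 2.81 ± 0.60 for IBIN. These contrasts chose the genes, so no p-value is given. In the same contrast 38 of the 12470 genes tested, or 0.305%, passed an adjusted p of 0.05. Ithaca minus Netherlands gave 3.05 ± 0.58 for edin and 2.34 ± 0.72 for IBIN. Ithaca minus Beijing gave -0.08 ± 0.49 and -0.47 ± 0.56, both smaller than their standard errors.

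All Beijing and Ithaca libraries were batch 1, so the batch term rested on the Netherlands haplogroups alone. Within batch 1, edin had a median of 16.1 CPM in 24 Beijing libraries and 3.14 CPM in 18 Netherlands libraries, and IBIN had medians of 4.77 and 0.488 CPM in the same groups. With batch 1 libraries alone, the Beijing minus Netherlands log2 fold change was 3.51 ± 0.61 for edin and 3.89 ± 0.76 for IBIN. Leaving out the 6 libraries above 20% in that share gave 3.27 ± 0.55 for edin and 2.79 ± 0.64 for IBIN.

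Ordered by mean log2 CPM, the haplogroups ran B38, I02, B39, N01, N23 and N02 for edin. Of the 5 steps between neighbours in that order, the step between B39 and N01 exceeded the pooled SD of the libraries, with a difference of 1.87 against an SD of 1.56. For IBIN the order was B38, I02, B39, N23, N01 and N02, and no step between neighbours exceeded the SD. The largest of these steps, 1.26 between B38 and I02, stood against an SD of 1.81.

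The 2 libraries of a combination often disagreed by far more than counting error. In mtB38-YB11, edin had 10.2 CPM in replicate 1 and 259 CPM in replicate 2, a ratio of 25.4 with an exact 95% counting interval of 18.7 to 35.4. In mtB39-YN07 the order was the other way, with 196 CPM in replicate 1 and 7.27 CPM in replicate 2. In mtI02-YB04, edin had 201 CPM in replicate 1 and 15.0 CPM in replicate 2. These libraries came from crosses made on the same day, per the series text. Counting intervals cover counting error only, since reads without molecular identifiers are not independent molecules.

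IBIN behaved alike in the same combinations. In mtB38-YB11 it had 8.02 CPM in replicate 1 and 70.1 CPM in replicate 2. In mtB39-YN07 it had 57.0 CPM in replicate 1 and 1.82 CPM in replicate 2, a ratio of 31.4 with an interval of 18.4 to 58.2. In mtI02-YB04 the replicate 1 library had 261 counts, or 51.2 CPM, and the replicate 2 library had 2 counts, or 0.371 CPM. That ratio was 138, with a counting interval of 37.9 to 1148. In all 3 of these combinations the library that was high for edin was also the one high for IBIN.

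Other combinations repeated closely. With Y ZH23, both B38 libraries were low, at 2.76 and 3.47 CPM of edin in replicates 1 and 2. With Y N07, the B38 libraries had 12.8 and 11.2 CPM, and with Y N03 they had 49.0 and 64.0 CPM. The haplogroup with the highest median thus held a combination in which both libraries had under 4 CPM of edin. These 3 pairs are named after their values were seen.

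Over all 36 combinations, edin differed more than 4-fold between its 2 libraries in 13, and more than 2-fold in 21. By population, the pairs beyond 4-fold were 6 of 12 with Beijing, 4 of 6 with Ithaca and 3 of 18 with Netherlands mitochondria. For IBIN, 13 of the 32 combinations with reads in both libraries differed more than 4-fold. In 15 of those 32 the lower library had 1 to 3 counts, and in 8 the lower end of the counting interval exceeded 2-fold. The median absolute difference between replicates was 1.55 for edin and 1.45 for IBIN on the log2 scale, against a median of 0.408 over all tested genes. That difference was larger than in 99.9% of tested genes for edin and 99.8% for IBIN. At their own abundance the fitted trend of the biological coefficient of variation was 0.269 and 0.296, and the genes' own estimates were 0.883 and 1.04.

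**Figure D2:**
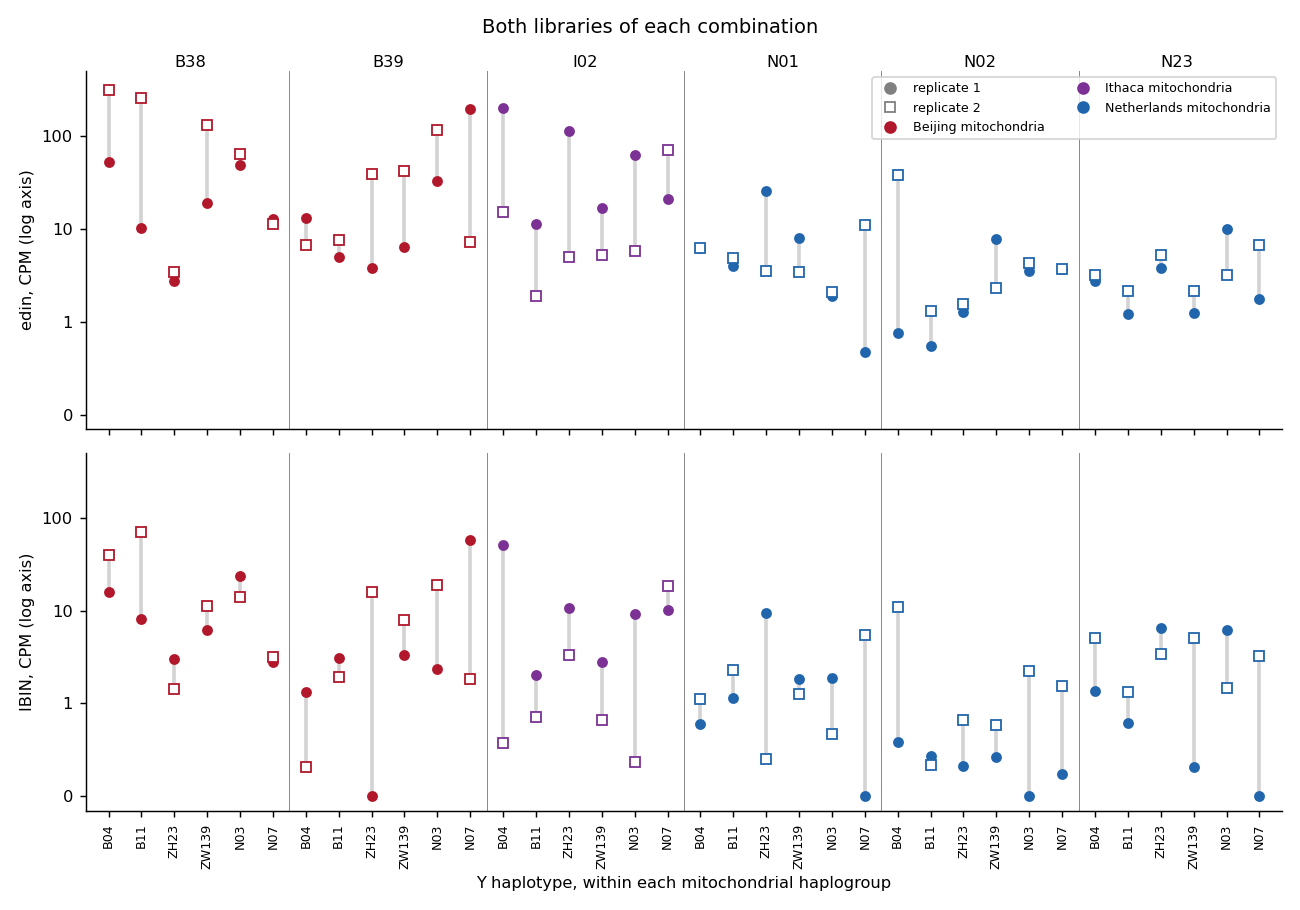
Level of edin (top) and IBIN (bottom) in both libraries of the 36 combinations, in CPM on a log axis with 0 drawn at the bottom, ordered by haplogroup and then Y haplotype; filled circles are replicate 1, open squares replicate 2, and grey lines join the pair. Pairs differ by up to 49.5-fold for edin, in mtN02-YB04, while both libraries of mtB38-YZH23 have under 4 CPM of edin.

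Which replicate was the higher one was not the same in all haplogroups. In I02, replicate 1 was the higher library in 5 of 6 combinations for edin, and in the same number for IBIN. In B38, replicate 2 was the higher library in 5 of 6 combinations for edin and in 4 of 6 for IBIN. The mean of edin in the 6 libraries of replicate 1 and the 6 of replicate 2 was 71.2 and 17.2 CPM in I02, and 24.3 and 130 CPM in B38. Over the 18 combinations with Netherlands mitochondria, replicate 2 was the higher library in 13 for edin and 12 for IBIN, and there replicate 2 was also batch 2.

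The replicate differences of the 2 genes moved together. Across the 36 combinations, which are separate pairs of crosses, Pearson's r between the difference in edin and the difference in IBIN was 0.834 and Spearman's rho 0.810. The permutation test, two-sided with 100000 permutations, gave p = 1e-05 for both, the smallest it can give, and 5e-05 after Benjamini-Hochberg adjustment over 5 relations. It takes the 36 differences as exchangeable. The higher replicate clustered by haplogroup in I02 and B38, and replicate 2 was batch 2 in the Netherlands combinations. The p can therefore overstate the evidence. Both genes were also chosen by their levels in these same libraries, so the p is no separate support for a link between them. In 27 of 36 combinations the same library was the higher one for both genes. In I02 this held in 6 of 6 combinations and in B38 in 3 of 6. Without the 2 combinations farthest from the median edin difference, r was 0.798. Within the 18 combinations with both libraries in batch 1, r was 0.875, and within the 18 that spanned both batches it was 0.777.

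The other 4 relations of that family set the replicate differences against technical ones. For the share of reads aligned to several places, r was -0.10 for edin (rho 0.01) and 0.04 for IBIN. For the library total, r was -0.13 for edin and -0.07 for IBIN. None of these 4 passed the permutation test, with adjusted p of 0.829 or above. Marker sums of blood cells, fat body, gut, and accessory gland with testis had r between -0.25 and 0.05 with either gene over the same differences, and their part was not tested.

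**Figure D3:**
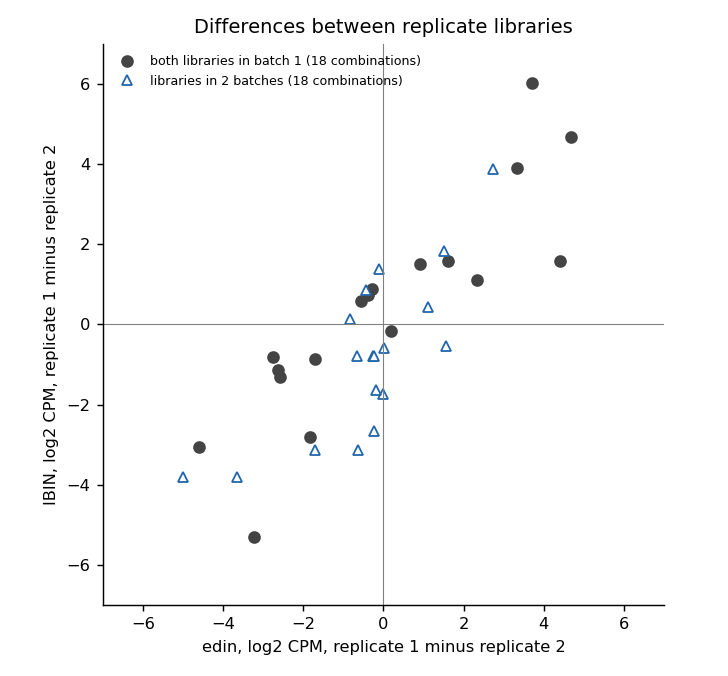
Difference in log2 CPM between replicate 1 and replicate 2 for edin (x axis) and IBIN (y axis), 1 point per combination; filled circles are combinations with both libraries in batch 1 and open triangles those that span both batches. Points run along the rising diagonal, with r = 0.834 over 36 combinations.

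Over the 72 libraries, edin and IBIN had r = 0.846, and within single haplogroups of 12 libraries r ran from 0.714 in N02 to 0.906 in B38. Spearman's rho was lower in N02, at 0.371, and in N01, at 0.601, and lay between 0.727 and 0.839 in the other 4. The 10 libraries with the most edin were 4 of B38, 2 of B39 and 4 of I02, and 7 of them were also among the 10 with the most IBIN. The highest library for edin was replicate 2 of mtB38-YB04, with 312.8 CPM and an exact 95% interval of 297.6 to 328.5 CPM. The highest with Netherlands mitochondria was replicate 2 of mtN02-YB04, with 37.7 CPM of edin and 10.8 CPM of IBIN, against 0.761 and 0.381 CPM in its partner. These were the highest Netherlands values of both genes.

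Genes most like edin over the 72 libraries, ranked by Pearson's r of log2 CPM, were mostly immune effectors. The first was DptA, a diptericin, with r = 0.900, and the second CG45045, with r = 0.861. Mtk, the antimicrobial peptide metchnikowin, had r = 0.856, ahead of IBIN at 0.846 and Dro, drosocin, at 0.819. The remaining 5 of the 10 were the peptidoglycan recognition proteins PGRP-SD (0.80) and PGRP-SB1 (0.787), the attacins AttC (0.760) and AttB (0.748), and the cecropin CecC (0.756). These values share the haplogroup differences that chose edin, as well as libraries and depth. Differences between the libraries of a combination leave out the haplogroup means, but not the single high libraries that raised them. Of edin pairs, 6 of 12 with Beijing, 4 of 6 with Ithaca and 3 of 18 with Netherlands mitochondria differed beyond 4-fold. Over these differences, r with edin was 0.834 for IBIN, 0.811 for DptA, 0.799 for PGRP-SB1 and 0.790 for Mtk. These were the 4 highest of 12469 genes.

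For IBIN the list of 10 was nearly the same, and 7 genes stood on both: AttC, CG45045, DptA, Dro, Mtk, PGRP-SB1 and PGRP-SD. The highest r over libraries was 0.864 for DptA, followed by edin at 0.846 and Mtk at 0.817. The diptericin DptB (0.739) and CG43920 (0.706) stood on the list of IBIN and not on that of edin. Over replicate differences edin ranked first for IBIN, at 0.834, followed by DptA at 0.833 and Mtk at 0.823. CG43920 had r = 0.842 with IBIN in the combinations within batch 1 and 0.337 in those that spanned both batches.

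Among the 11 tested antimicrobial peptides that are targets of the Imd pathway, 10 had r over 0.5 with edin in the replicate differences, and 10 with IBIN. Over all 12469 genes this was so for 25 genes with edin, or 0.200%, and for 21 with IBIN, or 0.168%. The exception in the list was CecA1, with 0.271 and 0.311. CecA1 and CecA2 are close copies, as are AttA and AttB. Reads aligned to several places were tallied apart from the counts in genes, so counts of such copies can be too low. Of 17 tested targets of the Toll pathway, 3 had r over 0.5 with edin, namely Mtk, drosomycin (Drs) and defensin (Def). With IBIN there were 2, Mtk and Drs. The rest of that list reached at most 0.416 with edin and 0.488 with IBIN. Signalling genes did not reach 0.5: none of the 14 Imd components did so with either gene, although PGRP-LC, the receptor at the head of the pathway, came to 0.497 and 0.495. None of the 10 negative regulators of Imd and none of the 10 JAK/STAT and Turandot genes did. Of 18 Toll components the exception was PGRP-SD, a recognition protein, with 0.597 and 0.648. Over the 11 sugar and glycogen genes the median r was -0.13 with edin and -0.10 with IBIN.

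**Figure D4:**
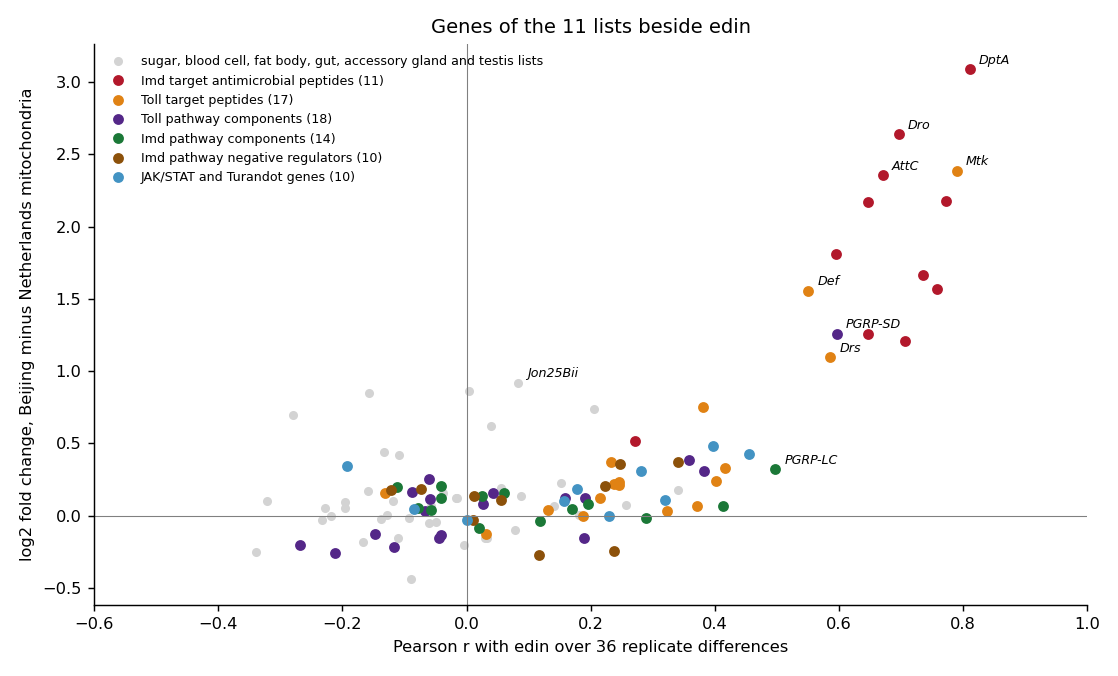
Genes of the 11 lists, 1 point each, by Pearson's r with edin over 36 replicate differences (x axis) and by the log2 fold change between Beijing and Netherlands mitochondria (y axis); colours give the list, with group sizes in the legend. Imd target peptides such as DptA, with r = 0.811 and a fold change of 3.09, lie at the upper right, and Imd components have fold changes of at most 0.32 (log2), with r of up to 0.497.

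Other genes were read in the contrast of Beijing with Netherlands mitochondria, with edgeR's quasi-likelihood test and Benjamini-Hochberg adjustment over all genes. This contrast chose edin and IBIN, and the lists were picked with earlier results of these data known. Genes that follow edin over the same libraries share that choice, so their calls are no separate support. Of the 11 Imd target peptides, 2 were higher and none lower, where 0.305% of all tested genes passed in either direction. These were DptA, with a log2 fold change of 3.09 ± 0.56 and an adjusted p of 0.00364, and Dro, with 2.64 ± 0.60 and 0.0342. All 11 had a positive fold change, with a median of 1.81, against a median of 0.01 over all genes. AttC, with 2.36 ± 0.58, and CecC, with 1.57 ± 0.39, did not pass. With Ithaca against Netherlands mitochondria, a contrast that shares the Netherlands libraries, 7 of the 11 were higher, where 0.601% of all tested genes passed in either direction. Mean levels of DptA were 129 CPM in Beijing, 76.1 CPM in Ithaca and 19.6 CPM in Netherlands libraries.

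Of the Toll lists, Mtk was the 1 of 17 target peptides that passed, with 2.39 ± 0.53 and an adjusted p of 0.0338 (edgeR). PGRP-SD was the 1 of 18 components, with 1.26 ± 0.20 and 0.00115. Both also followed edin over the libraries, so the same limit holds. Def, the peptide defensin, had 1.55 ± 0.38 and Drs, drosomycin, had 1.10 ± 0.37, and neither passed. At the share of all tested genes that passed in this contrast, 0.305%, lists of this size would seldom hold a call. None of 14 Imd components, 10 negative regulators, 10 JAK/STAT and Turandot genes, 11 sugar and glycogen genes, 8 blood cell markers or 2 fat body markers passed. PGRP-LC, for example, had 0.32 ± 0.09. Of 11 gut markers, the digestive proteases Jon25Bi, with 0.86 ± 0.19, and Jon25Bii, with 0.92 ± 0.20, passed as higher, and neither did when the 6 libraries rich in multiply aligned reads were left out. With Ithaca against Netherlands mitochondria, 0.601% of tested genes passed in either direction. Def, PGRP-SD and the gut markers Jon25Bi and Jon66Ci passed there as higher, and Mtk did not. The summed gut markers had medians of 20337 CPM in Beijing, 23313 CPM in Ithaca and 17791 CPM in Netherlands libraries, with ranges of 14257 to 38651, 10924 to 35151 and 14333 to 29573 CPM. Jon66Cii was at 0 in at least 1 library and no other gut marker was, and the part of gut tissue in the differences of edin and IBIN was not tested.

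The Y haplotype played no part in choosing the genes and could be tested. edin had a median of 9.94 CPM with Y B04, 4.45 CPM with B11, 3.79 CPM with ZH23, 7.02 CPM with ZW139, 7.88 CPM with N03 and 9.07 CPM with N07. IBIN had medians of 1.35, 1.64, 3.14, 2.32, 2.28 and 2.96 CPM in the same order. All 6 ranges overlapped for each gene, and each Y haplotype was combined with every haplogroup. By edgeR's quasi-likelihood F test over the 6 Y haplotypes, the adjusted p was 0.404 for edin and 0.747 for IBIN. Of the 2 genes 0 passed, where 4.15% of all tested genes did.

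**Figure D5:**
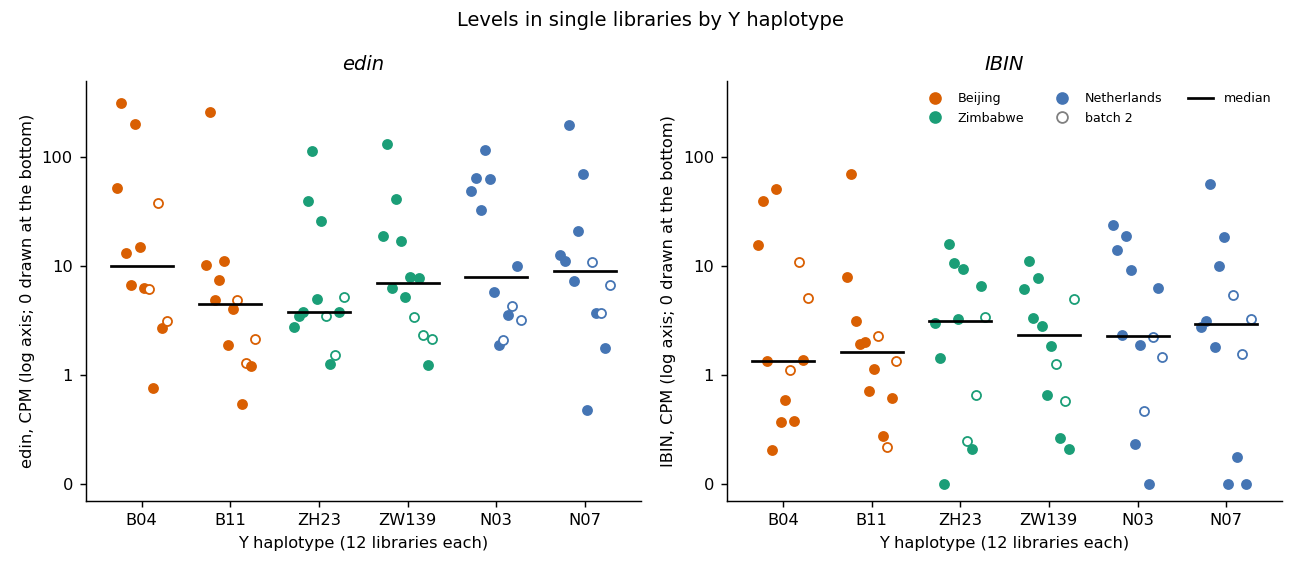
Level of edin (left) and IBIN (right) in each of 72 libraries, in CPM on a log axis with 0 drawn at the bottom, by Y haplotype; points are libraries, open points are batch 2, colours give the population of the Y and black lines are medians of 12 libraries. The edin medians lie between 3.79 CPM with ZH23 and 9.94 CPM with B04, and the ranges overlap throughout.

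Against the mean of the other 5, Y B04 had a log2 fold change of 1.02 ± 0.47 for edin (adjusted p = 0.21, edgeR), and Y B11 had -1.11 ± 0.57 (adjusted p = 0.434). The 2 Beijing Y haplotypes thus lay at opposite ends for edin, without passing. Beijing minus Netherlands Y gave -0.33 ± 0.46 for edin, with a 95% interval of -1.26 to 0.60 and an adjusted p of 0.703. For IBIN it gave -0.48 ± 0.54, with an interval of -1.57 to 0.60 and an adjusted p of 0.615. Here 3.16% of tested genes passed and neither of the 2 did. Of the Imd target peptides, none of 11 passed in this contrast and 10 had a negative fold change, with a median of -0.72 against 0.00 over all genes.

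Zimbabwe minus the other Y haplotypes gave -0.38 ± 0.41 for edin and -0.30 ± 0.49 for IBIN, with adjusted p of 0.707 and 0.818 by edgeR, where 0.0321% of tested genes passed. The 95% intervals were -1.21 to 0.45 for edin and -1.29 to 0.70 for IBIN. Combinations whose mitochondria and Y both came from Beijing or both from the Netherlands, set against the mixed ones of these populations, gave -0.13 ± 0.51 for edin and -0.18 ± 0.62 for IBIN. The adjusted p was 1.00 for both, and 0% of tested genes passed with edgeR, limma-voom or DESeq2, while 126 had an unadjusted p under 0.05.

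The test of interaction between haplogroup and Y haplotype passed for neither gene. By edgeR, its unadjusted p was 0.036 for edin and 0.0636 for IBIN, and both were 1.00 after adjustment. In that test 0% of genes passed, 239 had an unadjusted p under 0.05, and DESeq2 called 45 genes, neither of the 2 among them. In a sequential split of the variance of log2 CPM, with batch entered first, haplogroup held 31.7% for edin and 30.2% for IBIN. Y haplotype held 6.06% and 1.31%, the interaction 21.9% and 25.1%, batch 9.09% and 1.87%, and the libraries within combinations 31.3% and 41.5%. Batch 2 held Netherlands libraries only, so in this split the share of batch and that of the mitochondrial population cannot be told apart.

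Batch was tested within the Netherlands haplogroups. In 18 libraries of batch 2 and 18 of batch 1, edin had medians of 3.47 and 3.14 CPM, and IBIN had medians of 1.51 and 0.488 CPM. The log2 fold change of batch 2 over batch 1 was 0.26 ± 0.61 for edin (adjusted p = 0.789, edgeR) and 0.91 ± 0.69 for IBIN (adjusted p = 0.332, edgeR). Of all tested genes 29.3% passed in this contrast, and neither edin nor IBIN did. In N02, IBIN was at most 0.381 CPM in the 6 libraries of batch 1 and reached 10.8 CPM in batch 2.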

How the data were processed

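RNA of whole males was extracted with Trizol and made into 3' end libraries of polyadenylated RNA (Lexogen QuantSeq 3' FWD), per the labels' protocols. Tools listed in the submitters' processing notes are STAR 2.6, HTSeq 0.11.0, Trimmomatic 0.36, FastQC 0.11.5 and an unversioned DESeq2. Not given in the sources used here are the alignment's genome build, its annotation and any use of strand. The values are the raw counts per gene that the authors deposited, 1 column per library. All 72 columns were identical to the single-library files, and 0 per-sample columns were left unused. A deposited normalized table was not used.

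Genes were kept by edgeR's filterByExpr over the 36 combinations (12470 genes), scaled by TMM and fitted with edgeR 4.0.16 (quasi-likelihood, R 4.3.3), with a mean for each combination and a batch term, leaving 35 residual degrees of freedom. CPM use the scaled library sizes, and log2 CPM a prior count of 2. limma 3.58.1 and DESeq2 1.42.0 served as alternatives, with the fit repeated under other scaling, filtering, batch, block and library choices. Permutation tests drew 100000 permutations. Intervals of single libraries are exact (Clopper-Pearson) at 95%, and a count of 0 allows up to 3 counts. The edgeR fit alone was tried on simulated counts, with a smaller spread than edin and IBIN had and no likeness between same-numbered libraries. The permutation tests were not tried in this way. Libraries come from separate crosses, and p-values in the main fit take them as independent, though same-numbered libraries shared part of their deviations. With 1 replacement line for each haplotype, the p-values cover spread between crosses and none between lines.

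The named genes are edin, IBIN, the 10 tested genes with the highest r to each, and of each list up to 4 members with the smallest p between Beijing and Netherlands mitochondria. The members and lists were chosen with earlier results of these data known. Replicate numbers were not treated as pairs in the main fit. Of 630 pairs of combinations, the deviations of same-numbered libraries had r over 0.1 in 314, with a range of -0.58 to 0.74. An r over 0.1 held for 99 of 153 pairs within batch 1 and 125 of 153 among combinations that span the batches. The medians were 0.17 and 0.23, so same-numbered libraries shared part of their deviations. The list entries IKKbeta, upd2, upd3, TotB, TotF, TotZ, Tep1, Pepck1, lz, He, Fbp1 and Fbp2 did not pass the filter, and Dnr1, bbd, GlyP, GlyS and apoltp matched no symbol.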

Additional observations from a re-analysis of the deposited data

Results flagged for a closer look

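In 4 cases a library stood apart on the log2 scale from the others of a group of 4 to 10 libraries, by Dixon's ratio at its 95% critical value. Groups were libraries of 1 mitochondrial population with 1 Y haplotype, or of 1 Netherlands haplogroup in 1 batch, and 36 were examined over both genes. Chance alone marks about 1 in 20 groups. Among the 4 libraries with Beijing mitochondria and Y N07, replicate 1 of mtB39-YN07 had 196 CPM of edin, against 7.27 to 12.8 CPM in the other 3. The same library had 57.0 CPM of IBIN, against 1.82 to 3.15 CPM. Among those with Beijing mitochondria and Y ZH23, replicate 2 of mtB39-YZH23 had 39.2 CPM of edin, against 2.76 to 3.81 CPM. Among the 6 batch 2 libraries of N02, replicate 2 of mtN02-YB04 had 37.7 CPM of edin, against 1.30 to 4.26 CPM.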

How the results depend on the processing

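The Beijing minus Netherlands mitochondria fold change kept its sign in both genes under all 9 alternative fits (2.86 to 3.58 for edin, 2.28 to 3.89 for IBIN) and without each library in turn (2.81 to 3.38 and 2.11 to 3.33). No alternative brought edin or IBIN past an adjusted p of 0.05 for Y haplotype, interaction, batch or same against mixed population; the lowest was 0.0536, for batch in IBIN. Signs of the small Y contrasts turned in places. Without the libraries over 20% aligned to several places, Beijing minus Netherlands Y was 0.011 for edin and 0.040 for IBIN, and same minus mixed population 0.089 and 0.0033. With batch 1 alone, Zimbabwe minus other Y was 0.13 for edin and 0.43 for IBIN, and Beijing minus Netherlands Y 0.59 for IBIN. Leaving out 1 library gave -0.028 to 0.52 for batch in edin, -0.60 to 0.34 and -0.70 to 0.32 for same minus mixed population in edin and IBIN, and -0.98 to 0.040 for Beijing minus Netherlands Y in IBIN. The cause was not tested. With a replicate block, which allows for the partial likeness of same-numbered libraries, the fold changes between mitochondria were 3.03 for edin and 2.88 for IBIN. That block called 1830 of 12470 genes between mitochondria, 1045 higher and 785 lower, against 38 in the main fit, and it moved the lists. Of these, 8 of 11 Imd target peptides and 1 of 14 Imd components were called higher. So were 2 of 10 negative regulators and 1 of 8 blood cell markers. Called lower were 1 of 10 negative regulators, 2 of 11 sugar genes and 3 of 10 accessory gland and testis markers. Beside the share over all genes, the counts of 1 to 3 are not read as results about those lists. No batch term called 1122 genes between mitochondria, DESeq2 104 and batch 1 alone 24. Over Y haplotypes, against 517, DESeq2 called 875, the replicate block 929 and batch 1 alone 97. Between Beijing and Netherlands Y, against 394, the calls ranged from 8 with batch 1 alone to 749 with the replicate block. Gut markers called higher fell to 0 without the 6 libraries over 20%. Depth limits IBIN, with 0 to 3 counts in the lower library of 19 combinations.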
